A study of Rattus norvegicus with 5 samples.

Results

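The comparison set the parotid gland of 1 rat taken 60 min after isoproterenol against that of 1 rat taken 30 min after it. Each gene was read by bead probes, and a probe was included when its detection p-value, a measure of how often the array's negative control beads reached its brightness, was under 0.01 on at least 1 of these 2 arrays. This gave 9833 of the 22517 probes of the array, which named 7057 of 13336 genes. Of these probes, 8498 were detected on both arrays, 608 at 60 min only and 727 at 30 min only, and 7174 had a gene symbol.

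The parotid is the large serous salivary gland in front of the ear, and the study profiled it in 5 male Sprague-Dawley rats aged 2 to 3 months on Illumina bead arrays, 1 array per rat. The 60 min rat and the 30 min rat had both received isoproterenol, an agonist of beta-adrenergic receptors, by intraperitoneal injection. Another rat was taken 10 min after the drug, and 2 control rats had received normal saline. A dose of 20 mg per g of body weight is labelled, which is so large that the unit is doubtful. The sources used here state neither the time of day at which each rat was killed nor the array slides.

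In parotid acinar cells, beta-adrenergic receptors act through the stimulatory G protein, adenylyl cyclase and cAMP. Protein kinase A then releases amylase-rich granules and phosphorylates CREB, a transcription factor that binds the cAMP response element of its target genes. Immediate early genes are transcribed first after a stimulus, without new protein synthesis, and the mRNAs of many of them are short-lived. Later in the response come genes whose products switch signalling off and genes of metabolism, transport and protein folding.

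Each side of the comparison held a single rat, so no difference between 60 and 30 min has a replicate check, and an effect of time cannot be told apart from a difference between 2 rats. The difference between control 2 and control 1, also 1 rat a side, served as background. Values are log2 intensities after background correction and quantile normalization, on a scale whose highest value was 15.32, and differences are those of the 60 min rat minus the 30 min rat. The small number of arrays limits the precision, and each detected between 9095 and 9459 probes. The tissue label was borne out by the secretory genes: amylase (Amy1) stood at 15.05 at 60 min and at 15.05 at 30 min, and the parotid secretory protein gene Bpifa2 at 15.18 at 60 min and 15.07 at 30 min, near the top of the scale.

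At 60 min 283 of the 9833 probes (2.88%) were higher by at least 1 on the log2 scale, that is 2-fold, than at 30 min, and 308 (3.13%) were lower. Between the controls 97 of the same probes (0.986%) were higher in control 2 by that measure and 115 (1.17%) were lower, 212 in all (2.16%), against 591 (6.01%) for 60 against 30 min. The median absolute difference was 0.33 for 60 against 30 min and 0.19 between the controls. Without the 55 probes of the skeletal muscle list the 60 min array was higher at 283 probes (2.89%) and lower at 262 (2.68%), 545 in all (5.57%), whereas control 2 was higher at 97 (0.992%) and lower at 74 (0.757%), 171 in all (1.75%). Among the 9919 probes detected in a control, 234 (2.36%) differed between the controls. At 269 probes (2.74%) the 60 min array was higher, and at 252 (2.56%) lower, by at least 1 and by more than the controls differed. With the authors' own processed values 103 probes were higher and 132 lower, and 96 differed between the controls.

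A limma fit that borrowed its spread from the 2 controls called 0 of 9833 probes after Benjamini-Hochberg adjustment, with a smallest adjusted p of 0.181, and gave 1504 probes (15.3%) an unadjusted p under 0.05. Differences below are therefore described by their size and not as tested changes.

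The choice of detection threshold bore on dim probes only. Of 344 probes just inside it, with a best detection p-value between 0.005 and 0.01, 0 differed by at least 1, and of 391 just outside it, between 0.01 and 0.02, likewise 0. The median level on the brighter array was 5.13 just inside and 5.05 just outside. The lowest detected signals were 5.11 at 60 min and 5.08 at 30 min. So close to background a difference of 1 could hardly occur, and these counts do not show whether the threshold mattered.

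Skeletal muscle genes made up part of the lower probes and are set apart here. Such genes encode the contractile fibres and the energy supply of striated muscle, which lies next to the gland. Of 69 listed genes on the array, 55 were measured. Of these, 46 were at least 1 lower at 60 min, 0 were higher by that much, and the median was -2.01. Some members, such as Ampd1 and Csrp3, passed the filter only through the 30 min array, which set their lower sign. The skeletal actin gene Acta1 stood at 10.80 at 60 min against 14.07 at 30 min, at 8.03 at 10 min, and at 14.00 and 8.32 in controls 1 and 2. The muscle creatine kinase gene Ckm stood at 10.02 at 60 min against 13.36 at 30 min, at 7.39 at 10 min, and at 13.26 and 7.39 in the controls. Troponin C (Tnnc2) was lower by 2.62, the enolase gene Eno3 by 1.58 and the small heat shock protein gene Hspb6 by 1.84. The 30 min rat and control 1 thus had high muscle levels and the other 3 rats lower ones. Between the controls the same list had a median of -2.15, with 41 members at least 1 lower in control 2, so its 60 to 30 min difference was about as large as that between 2 saline rats. The summed level of the list was 13.37 at 60 min and 16.12 at 30 min, 12.73 at 10 min, and 16.09 and 12.86 in the controls. In bulk tissue, fewer cells of a type and less RNA per cell cannot be told apart.

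Genes outside the list shared this order of arrays. At 44 further probes the 60 min rat was at least 1 below the 30 min rat and control 2 at least 1 below control 1. These include several genes known from striated muscle. Among the 12 genes of lowest difference under the naming rule, the tropomodulin gene Tmod1 (-2.99 for 60 minus 30 min, -2.71 for control 2 minus control 1) and the melusin gene Itgb1bp2 (-2.55 and -1.89) belong here. So does the splicing factor gene Rbfox1 (-2.19 and -1.76). None of the 3 was above background at 60 min, which bounds their ratios at 5.62-fold or more for Tmod1, 4.07-fold for Itgb1bp2 and 4.53-fold for Rbfox1. Bounds of this kind hold for the background-corrected values only. In the authors' values the log2 differences of the 3 genes were smaller, at -1.66, -1.32 and -1.22. Gapdh, the glycolytic enzyme often used as a reference, was 1.40 lower at 60 min, with -0.91 between the controls. The aldolase gene Aldoa was 0.98 lower, with -0.93 between the controls. The pyruvate kinase probe (Pkm) was at least 2.79-fold lower, with a control difference of -1.70. The part of muscle tissue in these 3 differences was not tested.

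**Figure D1:**
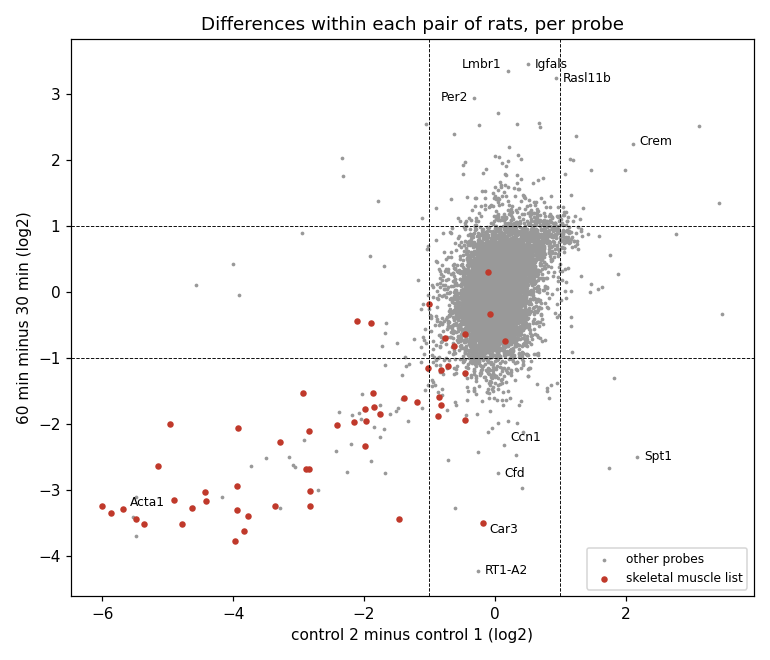
Each point is a probe detected at 60 or 30 min, with the control 2 minus control 1 difference on the horizontal axis and the 60 minus 30 min difference on the vertical axis, both in log2 units, and dashed lines at 1 and -1. Most probes of the skeletal muscle list (red) lie at the lower left, low in both differences, whereas RT1-A2 (-4.21), Cfd (-2.74) and Lmbr1 (3.35) differ between 60 and 30 min and little between the controls.

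Outside the muscle list, most probes that were higher at 60 min were highest there of all 5 arrays, in 272 of 283 cases, and in 197 the 30 min array already lay above both controls. Of the 262 lower probes, the 60 min array was the lowest of the 5 in 213, and the 30 min array the highest in 67. Large differences are more likely at extreme arrays, so these counts describe the selected probes and nothing more. The sets of 67 and 213 probes overlap, because the same probe can be highest at 30 min and lowest at 60 min.

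Immediate early genes divided between the 2 directions. Of 32 on the array 28 were measured; 5 were at least 1 higher at 60 min and 6 at least 1 lower, against 2.88% and 3.13% of all probes, with a median of 0.05. In the controls 3 were at least 1 higher in control 2 and 0 lower. Here and in the lists below genes are counted, each by 1 probe, whereas the shares beside them are over all probes. Outside the muscle list, 181 of 7002 measured genes were at least 1 higher at 60 min and 190 at least 1 lower.

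On the side of higher levels, Gadd45b, a growth arrest and stress gene, stood at 11.05 at 60 min against 9.05 at 30 min, at 5.85 at 10 min, and at 5.53 and 6.73 in the controls. The 60 min level was thus the highest of the 5, and 4.0-fold above that at 30 min. Myc, a transcription factor gene of cell growth, stood at 9.63 at 60 min against 8.09 at 30 min, but at 9.37 at 10 min and 9.08 and 8.93 in the controls. Its 30 min rat was the low one, and the 60 min level was only a little above the other rats. Klf4, a zinc finger gene of epithelial differentiation, was higher by 1.08, at 11.28 at 60 min and 10.20 at 30 min, against 7.50 and 8.24 in the controls. The orphan nuclear receptor gene Nr4a3 was higher by 1.35 (12.24 at 60 min, 10.89 at 30 min), less than the 3.42 by which its controls differed. Maff, a small Maf transcription factor gene, was above background at 60 min alone, at 5.46, and its bound against 30 min was 1.30-fold.

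On the side of lower levels, Ccn1, which encodes a matricellular protein, stood at 8.01 at 60 min against 10.32 at 30 min, at 9.07 at 10 min, and at 7.12 and 7.26 in the controls. At 60 min it was 4.94-fold lower, and still above both controls. Fos, the founding AP-1 gene, stood at 6.23 at 60 min against 7.25 at 30 min and 5.68 at 10 min, and was not above background in the controls. Ier2 stood at 8.92 at 60 min against 9.99 at 30 min, 8.63 at 10 min and 7.94 and 8.02 in the controls. In these 3 genes the 30 min rat was the highest of the 5. Ier3, an early gene of cell survival, stood at 6.95 at 60 min against 8.23 at 30 min, and the 60 min level was close to the 7.02 and 6.96 of the controls. Ptgs2, the inducible prostaglandin synthase, was at 6.62 at 30 min and not above background on any other array, so that it was at least 2.84-fold lower at 60 min. Phlda1, a pleckstrin-like protein gene, had another order: it stood at 7.56 at 60 min against 9.98 at 30 min, 10.20 at 10 min and 9.94 and 9.68 in the controls, with the 60 min rat alone low.

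Several early genes with high levels at both times differed little between them. Junb, an AP-1 gene, stood at 12.44 at 60 min and 12.67 at 30 min, against 7.95 and 8.65 in the controls. Egr1 was lower by 0.44, at 9.43 at 60 min and 9.87 at 30 min, and Gadd45g by 0.37, at 12.51 and 12.88 for the same times. The decay factor gene Zfp36 (0.09) and Nr4a2 (0.77) also stayed under 1, and Nr4a1 was above background at 60 min but not at 30 min, with a bound of 1.27-fold. The genes of this paragraph were chosen after their values were seen.

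**Figure D2:**
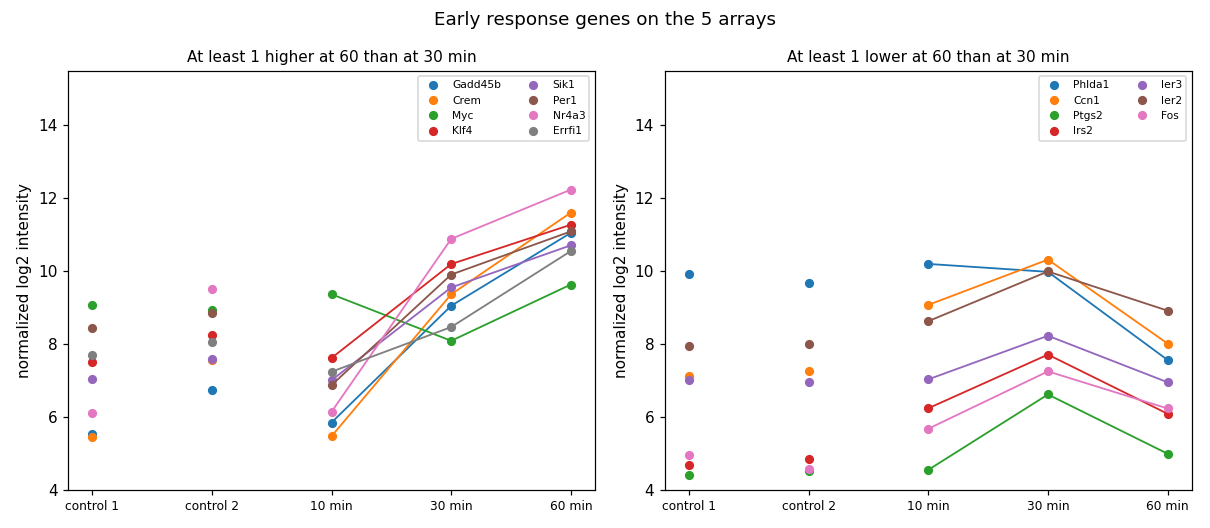
Normalized log2 intensity of early response genes on each of the 5 arrays, 1 rat per array; lines join the 10, 30 and 60 min arrays, which are different animals. On the left the levels are highest at 60 min in the genes shown, as in Gadd45b (11.05 at 60 min, 9.05 at 30 min); on the right they are lower at 60 than at 30 min, as in Ccn1 (8.01 at 60 min, 10.32 at 30 min).

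Targets of cAMP and CREB were likewise mixed. Of 26 on the array 21 were measured, 5 at least 1 higher at 60 min and 3 at least 1 lower, against 2.88% and 3.13% of all probes, with a median of 0.21 (0.16 between the controls, where 4 were at least 1 higher in control 2). Crem, whose short inducible products repress cAMP-driven transcription, stood at 11.61 at 60 min against 9.36 at 30 min, 5.47 at 10 min and 5.45 and 7.56 in the controls. The difference of 2.24 barely exceeded the 2.11 between the controls, and its second probe was higher by 2.03. Sik1, a kinase that holds CREB coactivators in the cytoplasm, stood at 10.71 at 60 min against 9.55 at 30 min, and between 7.01 and 7.59 on the other 3 arrays. Ppargc1a, a coactivator of mitochondrial and gluconeogenic genes, was 2.71-fold higher at 60 min, at 7.53 against 6.09, and between 5.40 and 6.21 on the other arrays. The clock gene Per1 was higher by 1.18. Among the 3 lower at 60 min was Irs2 (6.09 against 7.71 at 30 min), an insulin receptor substrate gene that was not above background in the controls. Another was Pck1, which encodes the gluconeogenic enzyme PEPCK; it stood at 6.98 at 30 min, was not detected at 60 min, and was thus lower there by 3.65-fold or more. The remaining one was Fos.

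The genes of both directions included ones with a full cAMP response element near their start. The letters TGACGTCA, which read the same on both strands, were looked for in the RefSeq promoters of the GRCr8 assembly, from 250 bases before to 50 bases after each start. They were found in 5 of 147 genes at least 1 higher at 60 min (3.4%), in 3 of 146 genes at least 1 lower outside the muscle list (2.05%), in 179 of 5905 measured genes (3.03%) and in 1.91% of all 27457 promoters of that table. The 5 genes were Golph3, Ppargc1a, Maff, Kctd8 and Gtf2f1, and the 3 were Ier2, Ltbp1 and Mlf1. Mlf1 shared the order of the muscle genes, with -2.63 for 60 minus 30 min and -3.73 for control 2 minus control 1. Maff was not above background at 30 min and was bounded at only 1.30-fold. The shorter site TGACG, which the full element contains, was present on either strand in 34.7% of the higher genes, 30.8% of the lower genes and 32.6% of measured genes. The CArG box, bound by serum response factor, was present in 0, 2 and 68 promoters of the same 3 sets. The shares of the full element and of the shorter site thus lay close to those of measured genes in both directions. The promoters below, of 1 early gene lower at 60 min and 2 genes of the cAMP and early gene lists higher at 60 min, are shown to set genes of opposite difference but the same element side by side, with the element in capitals. Ier2 (chr19:40399123-40399422, plus strand) has it from position -66, Ppargc1a (chr14:63634058-63634357, plus strand) from -181 and Maff (chr7:112792537-112792836, plus strand) from -51 relative to the start.
Ier2: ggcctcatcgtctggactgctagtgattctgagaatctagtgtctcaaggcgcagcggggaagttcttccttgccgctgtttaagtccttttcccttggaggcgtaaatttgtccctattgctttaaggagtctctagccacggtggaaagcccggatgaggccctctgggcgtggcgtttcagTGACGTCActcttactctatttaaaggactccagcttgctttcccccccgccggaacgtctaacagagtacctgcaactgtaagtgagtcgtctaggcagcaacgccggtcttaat
Ppargc1a: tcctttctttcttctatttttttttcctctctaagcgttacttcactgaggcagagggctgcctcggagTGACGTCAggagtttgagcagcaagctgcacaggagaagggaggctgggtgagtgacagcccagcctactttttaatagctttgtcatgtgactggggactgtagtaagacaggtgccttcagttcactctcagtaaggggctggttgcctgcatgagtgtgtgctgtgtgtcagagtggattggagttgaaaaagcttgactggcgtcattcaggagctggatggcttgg
Maff: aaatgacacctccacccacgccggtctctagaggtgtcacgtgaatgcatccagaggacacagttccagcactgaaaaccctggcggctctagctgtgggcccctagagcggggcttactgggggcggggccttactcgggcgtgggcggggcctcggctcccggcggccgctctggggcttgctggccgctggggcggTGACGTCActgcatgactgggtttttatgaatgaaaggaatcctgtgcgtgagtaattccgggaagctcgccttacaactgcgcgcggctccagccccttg
A match describes these letters and no binding was measured here.

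Feedback inhibitors of growth factor signalling included 2 genes that stood out at 60 min. Of 18 MAP kinase phosphatases and feedback inhibitors on the array 11 were measured, with 2 at least 1 higher and 0 at least 1 lower (2.88% and 3.13% of all probes) and a median of 0.56, while the controls differed by a median of 0.36. Over all 18, with the members below background included, the median was 0.05. Errfi1, whose product inhibits the EGF receptor kinase, stood at 10.55 at 60 min against 8.47 at 30 min, 7.24 at 10 min and 7.70 and 8.05 in the controls, 4.24-fold higher at 60 min. The MAP kinase phosphatase gene Dusp8 was higher by 1.33 by its brighter probe (7.67 at 60 min, 6.34 at 30 min) and by 0.47 by its other. Dusp1, of the same family, stood at 14.42 at 60 min and 14.37 at 30 min, both far above its controls at 9.53 and 11.10 and both near the top of the scale. Spred1, an inhibitor of Ras signalling, was detected at 30 min and not above background at 60 min, with a bound of 1.41-fold. Among 7 measured genes of the EGF receptor family, its ligands and secreted growth factors, the stress cytokine gene Gdf15 (7.94 at 60 min, 6.80 at 30 min) and the ligand gene Tgfa (8.34 at 60 min, 7.33 at 30 min) were at least 1 higher and none at least 1 lower. Vegfa was higher by 0.87 and the receptor gene Egfr by 0.60, and the median of 0.60 became 0.01 when the members below background were included.

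Clock genes, which keep daily time in cells of most tissues, lay on both sides. Of 11 measured, 2 were at least 1 higher and 2 at least 1 lower, where 2.88% and 3.13% of all probes were, with a median of 0.33 (0.04 between the controls). Per2, a repressor of the core clock, stood at 8.95 at 60 min against 5.99 at 30 min, 6.33 at 10 min and 8.32 and 8.0 in the controls. The 60 min rat thus resembled the controls more than the 30 min rat, which was the lowest of the 5. Per1 stood at 11.09 at 60 min against 9.91 at 30 min, at 6.87 at 10 min and at 8.45 and 8.87 in the controls. Nr1d1, a nuclear receptor that represses Bmal1, stood at 6.84 at 60 min against 8.48 at 30 min, 8.83 at 10 min and 9.46 and 9.86 in the controls. Bmal1, the core activator, was at 6.69 at 30 min and 6.41 at 10 min and not above background at 60 min or in either control, so that it was at least 2.99-fold lower at 60 min. As the hour of death is not known here, time after the drug and time of day cannot be told apart for these genes.

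Genes of amino acid supply and protein folding had a few members that were higher at 60 min; over all probes 2.88% were at least 1 higher and 3.13% lower. Among 17 measured amino acid transporters and ATF4 targets 3 were at least 1 higher and 0 lower, with a median of 0.20 (0.17 between the controls). That median was 0.01 with the members below background included. Slc7a5, the light chain of a transporter of large neutral amino acids, stood at 10.25 at 60 min against 8.45 at 30 min, 7.05 at 10 min and 5.56 and 6.63 in the controls, a stepwise order over the rats. Its partner Slc3a2 was at 13.21 at 60 min and 13.01 at 30 min. The glutamine transporter gene Slc38a2 was higher by 1.13, at 13.45 against 12.32, and the glutathione-degrading Chac1 at least 2.10-fold higher. Chac1 passed the filter only through the 60 min array, and it was higher by 0.55 in the authors' values. Among 23 measured genes of the unfolded protein response 3 were at least 1 higher and 0 lower, with a median of 0.25 (-0.01 between the controls). These were the ER chaperone genes Dnajb9 (9.94 at 60 min, 8.51 at 30 min) and Hspa5 (11.05 at 60 min, 9.96 at 30 min), and Creld2 (11.51 at 60 min, 10.27 at 30 min). For Hspa5 the 30 min rat was the lowest of the 5, and the 60 min level lay near the 10.79 of control 1. Xbp1, the transcription factor gene of secretory cells, was lower by 0.81. In ribosome biogenesis, 20 of 25 measured genes were higher by sign and 5 lower, with a median of 0.24 (0.02 between the controls), whereas 47.2% of all measured genes were higher by sign and 52.6% lower. Common reference genes, a list of 11 measured, had a median as high, 0.27. The medians of this paragraph thus show nothing particular to ribosome biogenesis, protein folding or amino acid supply. The nucleolar genes Nop58 (1.43) and Npm1 (1.06) were the only measured members that differed by at least 1, and for Nop58 the 30 min rat was the lowest of the 5.

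The most strongly higher genes came from no single list. Igfals, the acid-labile subunit of circulating IGF complexes, and Lmbr1, a limb region membrane protein gene, were above background at 60 min alone. They were at least 7.02-fold and 6.29-fold higher than at 30 min in the background-corrected values. In the authors' values their log2 differences were 2.02 and 1.94, less than these bounds. Rasl11b, a small GTPase gene, stood at 10.04 at 60 min against 6.80 at 30 min, 5.28 at 10 min and 5.88 and 6.82 in the controls, 9.50-fold higher at 60 min. The lactate and pyruvate transporter gene Slc16a1 stood at 9.92 at 60 min against 7.21 at 30 min, and between 6.64 and 6.76 on the other 3 arrays. Eprs1, a tRNA synthetase gene, was 5.95-fold higher at 60 min (11.11 against 8.54). Gpam, an enzyme gene of the first step of triglyceride synthesis, was 5.85-fold higher and Hps4, a gene of lysosome-related organelles, 5.68-fold. Hagh, a glyoxalase gene, was 5.18-fold higher, at 13.24 against 10.86, while its controls differed by 1.24. Pzp, a protease inhibitor gene, was at least 4.11-fold higher. In Slc16a1, Rasl11b and Gpam the 60 min rat alone stood clearly apart.

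Hypoxia and glycolysis genes went both ways, 3 of 18 measured at least 1 higher and 2 lower, against 2.88% and 3.13% of all probes. By sign 7 were higher and 11 lower, with a median of -0.30 (-0.15 between the controls). The carbonic anhydrase gene Car9, a target of hypoxia-inducible factors, stood at 7.25 at 60 min against 5.38 at 30 min and was not above background on the other 3 arrays. Adm, encoding adrenomedullin, was higher by 1.08 and the glucose transporter gene Slc2a1 by 1.01. For Slc2a1 the 30 min level of 5.09 lay near background, and its difference was as small as 0.45 in other settings. The 2 lower members were Gapdh and Pkm, described with the muscle genes. Among 14 measured inflammatory and NF-kB targets the median was 0.59, and -0.19 between the controls; it was 0.15 with members below background included. Nfkb1 was at least 1.98-fold higher at 60 min, Ptgs2 was the member at least 1 lower, and the chemokine gene Cxcl1 was higher by 0.68.

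Acinar secretory genes, which encode the proteins of saliva, had a median difference of 0.02. Of 18 measured, 1 was at least 1 higher and 2 at least 1 lower, against 2.88% and 3.13% of all probes. Oprpn, a mucin-like secreted protein gene, stood at 12.82 at 60 min against 11.05 at 30 min, 11.64 at 10 min and 11.01 and 11.34 in the controls. Spt1, encoding salivary protein 1, stood at 5.47 at 60 min against 7.96 at 30 min, 10.84 at 10 min and 9.12 and 11.30 in the controls. This difference of -2.49 stood beside a control difference of 2.18. The protease inhibitor gene Cst3 was lower by 1.06. Many abundant members lay near the top of the scale, where a difference is hard to see.

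Adipocyte genes, which serve the storage and release of fat, had the lowest median difference of the 32 lists after muscle. Of 23 on the array 19 were measured; 11 were at least 1 lower and 0 at least 1 higher, against 3.13% and 2.88% of all probes, and the median was -1.06. By sign 17 were lower, and the other 2, the beta-3 receptor gene Adrb3 (0.85) and the transcription factor gene Cebpa (0.73), were higher at 60 min. Unlike muscle genes, they differed little between the controls, with a median of 0.05. Cfd, the adipsin gene, stood at 8.75 at 60 min against 11.49 at 30 min, 9.81 at 10 min and 11.26 and 11.32 in the controls. The desaturase gene Scd stood at 7.97 at 60 min against 10.51 at 30 min, 9.89 at 10 min and 10.97 and 10.25 in the controls. G0s2, an inhibitor of triglyceride lipase, stood at 8.21 at 60 min against 10.68 at 30 min and between 10.49 and 10.83 on the other arrays. In all 3 genes the 60 min rat was the lowest of the 5. The adiponectin gene Adipoq, a defining adipocyte marker, was at 6.32 at 30 min and not above background at 60 min, at least 2.31-fold lower. Adipoq, Dgat2, Pck1 and Retn passed the filter only through the 30 min array. Their lower sign was thus set by the filter and is no separate observation. The fatty acid binding protein gene Fabp4 was lower by 1.18, the lipoprotein lipase gene Lpl by 0.92 and the insulin-responsive glucose transporter gene Slc2a4 by 1.78. The summed level of the list was 12.34 at 60 min and 13.68 at 30 min, 13.23 at 10 min, and 13.80 and 13.76 in the controls. Genes outside the list had a like order: the carboxylesterase gene Ces1d was at least 7.0-fold lower, with 4.95 at 60 min against 7.92 at 30 min, and the synuclein gene Sncg was lower by 2.12. Car3, abundant in fat as well as in muscle, stood at 8.03 at 60 min against 11.52 at 30 min and 11.42 and 11.24 in the controls, the order of the fat genes and not of the muscle genes. The amount of fat tissue in each sample was not measured, and its part in these differences was not tested.

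**Figure D3:**
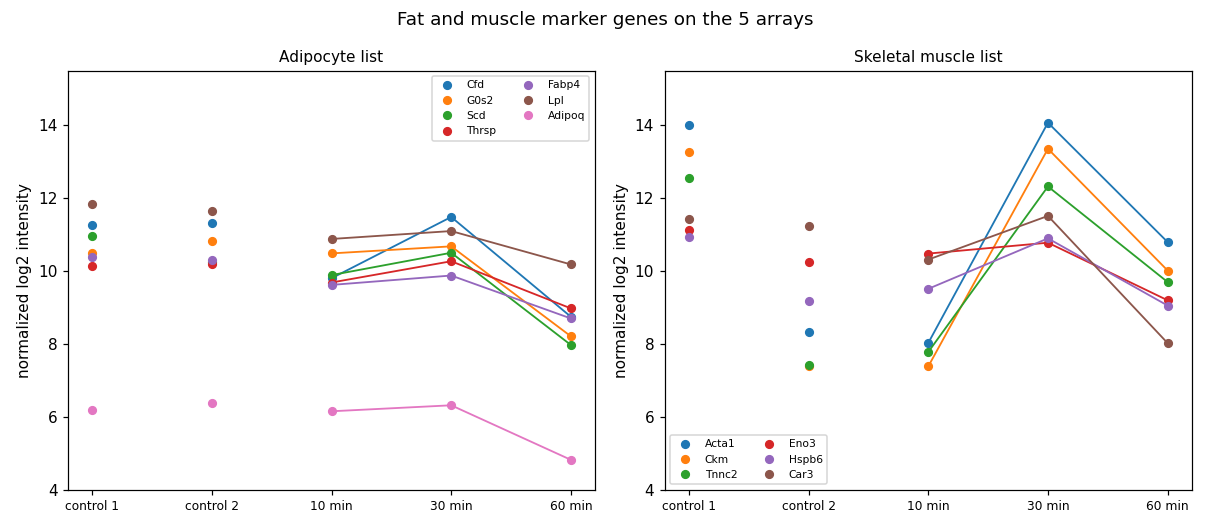
Normalized log2 intensity of adipocyte genes (left) and skeletal muscle genes (right) on each of the 5 arrays, 1 rat per array; lines join the 10, 30 and 60 min arrays, which are different animals. For each adipocyte gene plotted the 60 min rat is the lowest, as in Cfd (8.75 at 60 min, 11.49 at 30 min), whereas muscle genes such as Acta1 are high at 30 min (14.07) and in control 1 (14.00).

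Vessel and connective tissue genes were lower to a smaller extent. By sign, 52.6% of all measured genes were lower and 47.2% higher at 60 min. All 10 measured endothelial genes were lower by sign, 2 of them by at least 1, with a median of -0.44 (-0.25 between the controls). Egfl7, secreted by endothelium, stood at 5.39 at 60 min against 6.89 at 30 min, and the von Willebrand factor gene Vwf was at least 2.18-fold lower. Vwf passed the filter only through the 30 min array, so its lower sign was set by the filter. Of 22 measured fibroblast and matrix genes 18 were lower by sign, with a median of -0.21 (-0.10 between the controls). By at least 1, 2 were lower, the fibronectin gene Fn1 by 1.29 and the fibulin gene Fbln1 by 1.28. Fn1 stood at 8.30 at 60 min and 9.58 at 30 min, at 8.07 at 10 min, and at 10.29 and 10.13 in the controls. Collagen genes differed little between the 2 times, Col1a1 by -0.11 and Col3a1 by -0.16. Of 9 measured myoepithelial and smooth muscle genes 2 were at least 1 lower, the desmin gene Des (6.68 at 60 min, 9.92 at 30 min) and the Z-disc gene Synpo2 (5.45 at 60 min, 7.27 at 30 min). Both are expressed in skeletal muscle too and shared its order of arrays, with control differences of -2.82 and -2.38. Krt14, a basal and myoepithelial keratin gene, was higher by 0.37. Conversely, all 10 measured lymphoid and plasma cell markers were higher by sign at 60 min, none by at least 1. Their median was 0.40 against -0.06 between the controls. The T cell receptor component genes Cd3d, Cd3e and Cd3g were above background at 60 min, at 5.49, 5.11 and 5.78, and not at 30 min, and the bound for Cd3d was only 1.33-fold. Because these genes passed the filter only through the 60 min array, their higher sign was set by the filter and is no separate observation. In other settings the median of the lymphoid and plasma cell list was as low as 0.19.

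**Figure D4:**
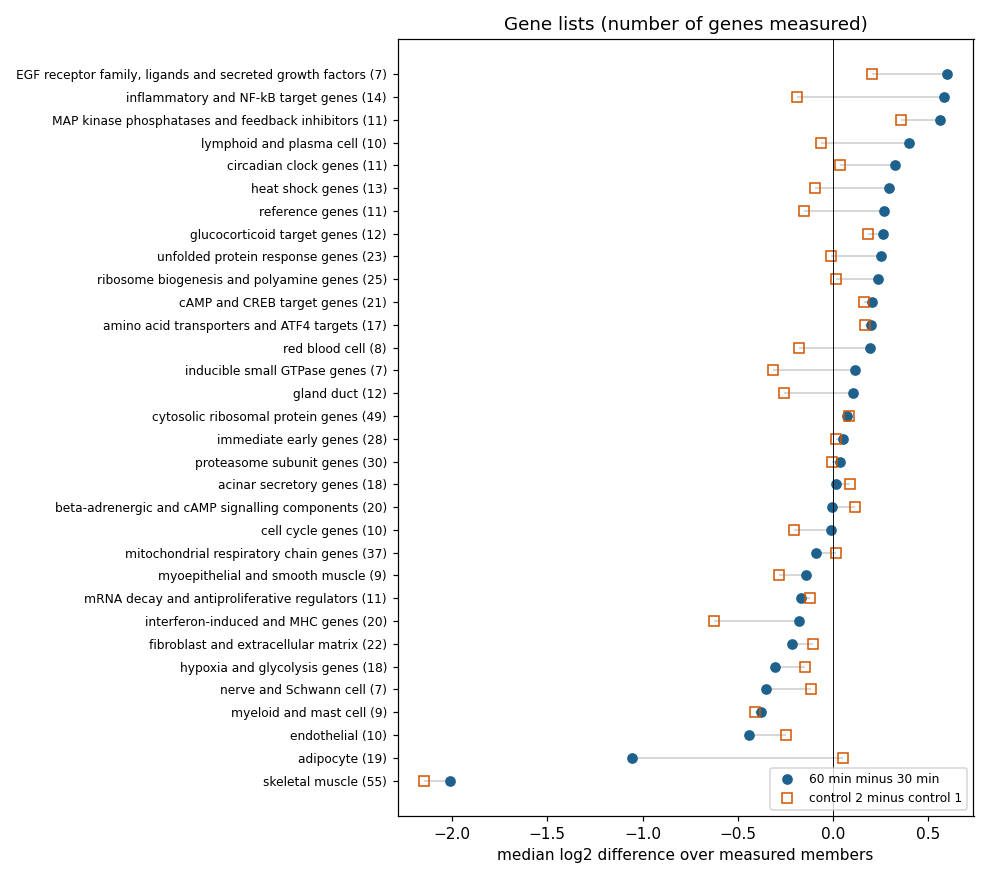
Median log2 difference over the measured genes of each of 32 lists (number of genes in brackets), for 60 minus 30 min (filled circles) and for control 2 minus control 1 (open squares). Skeletal muscle lies far left in both differences (-2.01 and -2.15), whereas the adipocyte list lies left for 60 minus 30 min (-1.06) and near 0 between the controls (0.05).

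Histocompatibility genes included the lowest difference of any named gene. RT1-A2, a gene of the rat's polymorphic class I family, was at 8.81 at 30 min and 9.18 at 10 min. It was not above background at 60 min or in either control, so that it was at least 13.0-fold lower at 60 min. In the authors' values RT1-A2 was lower by 2.71 on the log2 scale, less than this bound. Its relative RT1-S2 had the opposite order, not above background at 30 min but detected on the other 4 arrays, and was at least 3.35-fold higher at 60 min. RT1-A3 was lower by 1.24, with a control difference of -0.80. The immunoproteasome gene Psmb9 was at least 1.545-fold lower, with a control difference of -0.90. Other members differed little, with B2m, the shared light chain, at 12.16 at 60 min and 12.17 at 30 min. Of 20 measured interferon-induced and histocompatibility genes, 1 was at least 1 higher and 3 at least 1 lower, against 2.88% and 3.13% of all probes. Their median of -0.18 was nearer 0 than the -0.62 between the controls. The class I alleles of the rats were not given, members of this family are near-identical in sequence, and the part of either in these values was not tested.

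Several groups of widely expressed genes had median differences near 0. Of 49 measured cytosolic ribosomal protein genes none differed by at least 1 (median 0.08), nor did any of 37 mitochondrial respiratory chain genes (-0.09). Of 30 proteasome subunit genes 1 was at least 1 lower, Psmc6, with a bound of 1.19-fold. The 11 measured reference genes were less level, with a median of 0.27 (-0.15 between the controls). Gapdh was lower by 1.40, the TATA-binding protein gene Tbp higher by 0.73 and Ywhaz by 0.59, whereas Gusb (0.06) hardly differed, and the transferrin receptor gene Tfrc was detected at 60 min alone. None of 20 measured beta-adrenergic and cAMP signalling components and none of 10 cell cycle genes differed by at least 1, and the medians of both lists were within 0.01 of 0. Adrb3 had the highest difference of the signalling components.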

How the data were processed

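Transcripts were measured on Illumina bead arrays, 1 per rat. The authors deposited a table of each probe's intensity and detection p-value for 22517 probes. Although named as non-normalized, its sorted intensities differed by a median of 0.13% between arrays, so quantiles had already been equalized. The authors also deposited a log2 value table, each column of which had the median 6.0015, and the sources used here name neither its transform nor the software and build.

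Intensities of all 5 arrays were background-corrected by normexp from the detection p-values, with an offset of 16, then quantile normalized and log2 transformed (neqc, limma 3.58.1, R 4.3.3). Compared with uncorrected intensities this enlarged differences, with 283 probes higher and 308 lower against 104 and 139. A side not above background, that is with a detection p-value of at least 0.01, gives a bound against the lowest detected signal of that array. Such a bound holds for the background-corrected values only. In the authors' values several of these genes differed by less than their bound, such as Bmal1 (-0.81 in log2) and Ptgs2 (-0.79). Gene symbols came from the platform annotation for 13787 probes, 8730 had none, and 13747 Entrez identifiers matched GRCr8. Each listed gene was read from its brightest probe over all arrays, and lists count only measured genes, 744 of 892 listed names being on the array. A member measured only through its brighter array had to differ.

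The limma fit had 1 residual degree of freedom, from the controls, and 3.72 prior degrees, and assumed that each lone rat varied as the controls did. It was tested on simulated data. Named genes were, per direction, the 12 largest differences outside muscle of at least 1 that exceeded the control difference, up to 4 such members per list, and the 6 brightest muscle genes; others were chosen after their values were seen. Members and lists were chosen with earlier results of these data known.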

Additional observations from a re-analysis of the deposited data

How the results depend on the processing

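The direction of all 124 genes that the naming rule chose or that differed by at least 1 within a list was kept under 5 other ways of making the values, and 83 stayed past 1 in each of them. All 124 had been selected for a difference of at least 1, and every setting started from the same already equalized intensities. A reversal of direction was therefore unlikely, and its absence is no independent check. Counts depended on the treatment of dim probes. Without background correction 104 probes were higher, 139 lower and 97 different between the controls. With an offset of 50 these counts were 125, 163 and 107, and with the authors' values 103, 132 and 96. At a 4-fold threshold they were 22, 62 and 63, so the total for 60 against 30 min exceeded that of the controls by little. At 4-fold and without the muscle list, a setting chosen after seeing the data, they were 22, 34 and 34. At a 1.5-fold threshold they were 1304, 1113 and 883. The share of calls that were higher was 47.9% in all, 51.9% without the muscle list and 26.2% at 4-fold. The limma fit called 123 probes, 62 higher and 61 lower, once probes whose controls differed by at least 1 were left out, which lowers the spread by construction, and 0 in each of the 12 other settings. List medians kept their sign in 8 settings except for the small GTPase (-0.04 without a filter), beta-adrenergic and cell cycle lists, whose medians lay near 0. Without a filter on dim probes the medians of the EGF receptor, amino acid and MAP kinase lists were 0.01, 0.01 and 0.05. The adipocyte median lay between -1.06 and -0.68. No paired analysis was possible because each time has 1 rat and the control numbers have no counterpart among the isoproterenol rats. Leaving out a control leaves limma no residual degree of freedom, and the difference itself uses no control.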

Other observations

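A few genes outside the groups above also differed. Hsf2, a heat shock transcription factor gene, was at 6.26 at 30 min and not above background at 60 min, at least 2.22-fold lower, while Bag3, a co-chaperone gene, was 0.86 higher. Fech, the last enzyme of haem synthesis, was lower by 1.19 by its brighter probe and 0.11 higher by its other. The beta-globin gene Hbb stood at 13.31 at 60 min and 12.87 at 30 min, against 10.90 at 10 min and 13.65 and 13.43 in the controls, so the 10 min rat alone was low. Of the Schwann cell genes, S100b was at least 1.99-fold lower and Cdh19 0.83 higher at 60 min.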
